A study of Mus musculus with 6 samples.

Results

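The data describe 10 long RNAs that are not known as messengers of proteins, in mouse bone marrow-derived macrophages (BMDMs, macrophages grown in culture from marrow cells) given LPS and a fatty acid. They are the nuclear RNAs Neat1 and Malat1, the microRNA-155 host Mir155hg, the imprinted Meg3, and 6 hosts of small nucleolar RNAs (snoRNAs), namely Gas5, Snhg1, Snhg5, Snhg8, Snhg12 and Snhg15. They were taken by gene symbol from the 29957 rows of a deposited expression table. All 10 were found, each on 1 row. The study holds 6 RNA-seq libraries, all of wild-type BMDMs: 3 treated with LPS and PA-BSA and 3 labelled control. LPS is bacterial lipopolysaccharide, which signals through TLR4. PA-BSA is a free fatty acid carried on albumin, and it was given after LPS as the activating signal of the Nlrp3 inflammasome in place of ATP. Whether control cells received albumin, and the doses and times, are not given in the labels. Cells given LPS alone were not analysed here, and what LPS did cannot be told apart from what PA-BSA did. Nothing in the labels says that replicates came from separate animals or cultures, so p-values measure only the spread between these libraries, which may be technical.

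Malat1 lies in nuclear speckles, bodies rich in splicing factors, and Neat1 is the scaffold of paraspeckles, bodies in which proteins and RNAs are held in the nucleus. Mir155hg is the transcript from which microRNA-155 is cut, and microRNA-155 is known for its induction by Toll-like receptor signalling in macrophages. Small nucleolar RNAs guide the chemical modification of ribosomal RNA and are cut from the introns of host genes. Several hosts keep exons that encode no protein of note, begin with a run of pyrimidines as ribosomal protein genes do, and are removed in the cytoplasm by nonsense-mediated decay. Meg3 is transcribed from the maternal copy of the Dlk1-Dio3 region.

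The sequences that bear on how these RNAs are measured or grouped are printed first. The microRNA-155 hairpin lies in Mir155hg at chr16:84714140-84714204 on the plus strand (RefSeq, GRCm38.p6, the assembly also called mm10), and the capitals in it mark the arm that gives miR-155-5p. In both mature forms the capitals mark the seed, bases 2 to 8.

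miR-155 hairpin: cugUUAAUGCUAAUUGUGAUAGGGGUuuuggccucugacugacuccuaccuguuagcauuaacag

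miR-155-5p: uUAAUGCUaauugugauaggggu

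miR-155-3p: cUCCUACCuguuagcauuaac

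The starts of the 6 host genes are shown because the pyrimidine run is the feature that snoRNA hosts are known to share with ribosomal protein genes. Each window has 60 bases of RefSeq's promoter table (GRCm38.p6) with the annotated start at base 21. Capitals mark every run of 5 or more C or T on the gene's strand whose first base lies within 10 bases of the start. Gas5 has a window at each of 2 annotated starts. In order, the windows lie at chr1:161034581-161034640 and chr1:161035146-161035205 (plus strand, both Gas5), chr19:8723467-8723526 (plus), chr9:88522858-88522917 (minus), chr3:123508297-123508356 (minus), chr4:132308658-132308717 (plus) and chr11:6528721-6528780 (minus).

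Gas5, upstream start: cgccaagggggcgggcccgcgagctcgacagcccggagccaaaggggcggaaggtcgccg

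Gas5, downstream start: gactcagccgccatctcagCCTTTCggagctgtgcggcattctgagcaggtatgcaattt

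Snhg1: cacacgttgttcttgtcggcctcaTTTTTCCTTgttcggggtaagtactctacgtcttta

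Snhg5: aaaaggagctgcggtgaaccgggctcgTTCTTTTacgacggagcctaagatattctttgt

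Snhg8: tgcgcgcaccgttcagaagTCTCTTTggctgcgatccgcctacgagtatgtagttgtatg

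Snhg12: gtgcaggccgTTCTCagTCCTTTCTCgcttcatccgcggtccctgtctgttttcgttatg

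Snhg15: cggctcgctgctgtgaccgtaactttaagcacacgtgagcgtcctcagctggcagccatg

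Such a run stood in 5 of the 7 host windows (71.4%), and in 38% of all 32851 windows of the table. The upstream Gas5 window and that of Snhg15 hold none. A run is a description of these letters, not a shown start of translation control.

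Malat1 and Neat1 are shown at the places that bear on poly(A) selection. RNA for these libraries was bound to oligo(dT) beads, which take RNA with a tail or with a run of A. The nuclear Malat1 has no tail added by poly(A) polymerase: its end is cut by RNase P just upstream of a tRNA-like RNA, beside an A-run that the genome encodes. That run of 12 A begins at base 6674 of the 6983 bases of the GENCODE M21 transcript, and 4.07% of the 141767 transcripts of that annotation hold a run as long. The short form of Neat1 ends in a usual polyadenylation signal, AATAAA, whereas the long form that builds paraspeckles is known to end without a tail. The deposited row gives 1 value for both forms. The Malat1 stretch lies at chr19:5795964-5796023 and the Neat1 stretch at chr19:5842307-5842366, both on the minus strand (GRCm38), with the A-run and the signal in capitals.

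Malat1, internal A-run: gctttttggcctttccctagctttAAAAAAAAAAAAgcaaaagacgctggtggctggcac

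Neat1, short form end: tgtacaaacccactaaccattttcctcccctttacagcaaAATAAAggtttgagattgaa

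One snoRNA of each main class is shown to make plain what the hosts carry. Snord47, from an intron of Gas5 (chr1:161038082-161038158, plus strand), is of the box C/D class, which guides methylation, and its box C and box D are in capitals. Snora24, from Snhg8 (chr3:123507937-123508066, minus strand), is of the H/ACA class, which guides pseudouridylation, and its ACA box is in capitals.

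Snord47: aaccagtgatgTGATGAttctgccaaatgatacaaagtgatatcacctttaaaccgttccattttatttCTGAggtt

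Snora24: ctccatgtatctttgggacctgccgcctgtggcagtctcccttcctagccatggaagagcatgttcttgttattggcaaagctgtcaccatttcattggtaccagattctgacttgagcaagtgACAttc

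Values are FPKM, fragments per kilobase of transcript relative to the mapped total, as deposited. Low values step in whole fragments, which gave depths of 14.4 to 18.9 M (mega) fragments in LPS+PA-BSA libraries and 13.9 to 21.2 M in controls (exact permutation test, two-sided, p = 1; the smallest p of 3 against 3 is 0.1). For a 1 kb transcript, a single fragment amounts to 0.0472 to 0.0719 FPKM. The macrophage label held: all 11 macrophage markers were tested, that is, at 1 FPKM or more in at least 3 libraries, and summed to 12109 to 14342 FPKM in LPS+PA-BSA and 18981 to 22002 FPKM in control libraries. The libraries also differed in base composition. A gene's departure from its group mean moved, per 10 points of transcript GC content, by -0.20, 0.07 and 0.13 (log2) in LPS+PA-BSA 1, 2 and 3, and by 0.13, 0.17 and -0.30 in control 1, 2 and 3. Control 3 had the steepest slope. Some alternatives used a pair of library sets known from earlier results of these data: control 1, control 2 and LPS+PA-BSA 3 in one, and control 3, LPS+PA-BSA 1 and LPS+PA-BSA 2 in the other. LPS+PA-BSA 3 or control 3 then stands alone in its group, so calls within a set take no spread from that group. In bulk RNA, fewer cells of a type and less of an RNA per cell cannot be told apart.

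Of the 10 RNAs, 9 were tested, with limma on log2(FPKM + 1) over 11364 genes and a Benjamini-Hochberg adjusted p under 0.05. Mir155hg and Snhg1 rose, Malat1 and Snhg8 fell, and Neat1, Gas5, Snhg5, Snhg12 and Snhg15 did not pass the test. The 4 called of 9 stand beside 55.1% of all tested genes called in either direction, the 2 higher beside 22.2% and the 2 lower beside 32.9%, so the members were called no more often than the table as a whole. Groups did not overlap for 5 of the 9, beside 63.2% of all tested genes. Mir155hg passed the filter through its LPS+PA-BSA libraries alone and Snhg8 through its controls alone, so both had to differ. The counts called and not overlapping are thus in part set by the filter. Among the 340 tested genes that GENCODE M21 types as long noncoding, 29.4% were higher and 26.2% lower. The median log2 fold change was -0.27 over the 9, -0.11 over all tested genes and 0.01 over the long noncoding ones. Quantile normalization moves the median of all tested genes by 0.13. With it 3014 genes were higher and 2922 lower, and with median-of-ratios scaling 3140 and 3030, against 2523 and 3736 on the FPKM as deposited. Relative to the median of all tested genes, Malat1 stood at -0.27, Neat1 at -0.18, Gas5 at -0.16 and Snhg12 at -0.16.

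The word abundant fits a few of them. In LPS+PA-BSA macrophages the order of the mean levels was Malat1, Neat1, Gas5, Mir155hg, Snhg1, Snhg12, Snhg15, Snhg5, Snhg8 and Meg3, and in control macrophages it was Malat1, Neat1, Gas5, Snhg8, Snhg12, Snhg1, Snhg15, Snhg5, Meg3 and Mir155hg. Neighbours overlapped between libraries for Snhg12 with Snhg15 and Snhg15 with Snhg5 in LPS+PA-BSA. In controls they overlapped for Snhg8 with Snhg12, Snhg15 with Snhg5, and Meg3 with Mir155hg. Over all 6 libraries Malat1 ranked 173 of the 29957 rows, Neat1 646, Gas5 2114 and Meg3 17741. Malat1 was the highest and Neat1 the fifth of the genes that GENCODE M21 types as long noncoding. That class also holds Ifi30 (103 FPKM), which ranked above Neat1, and Cct6a (29.9 FPKM). Both are known to encode proteins, so ranks and shares within the class are those of a mixed set.

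**Figure D1:**
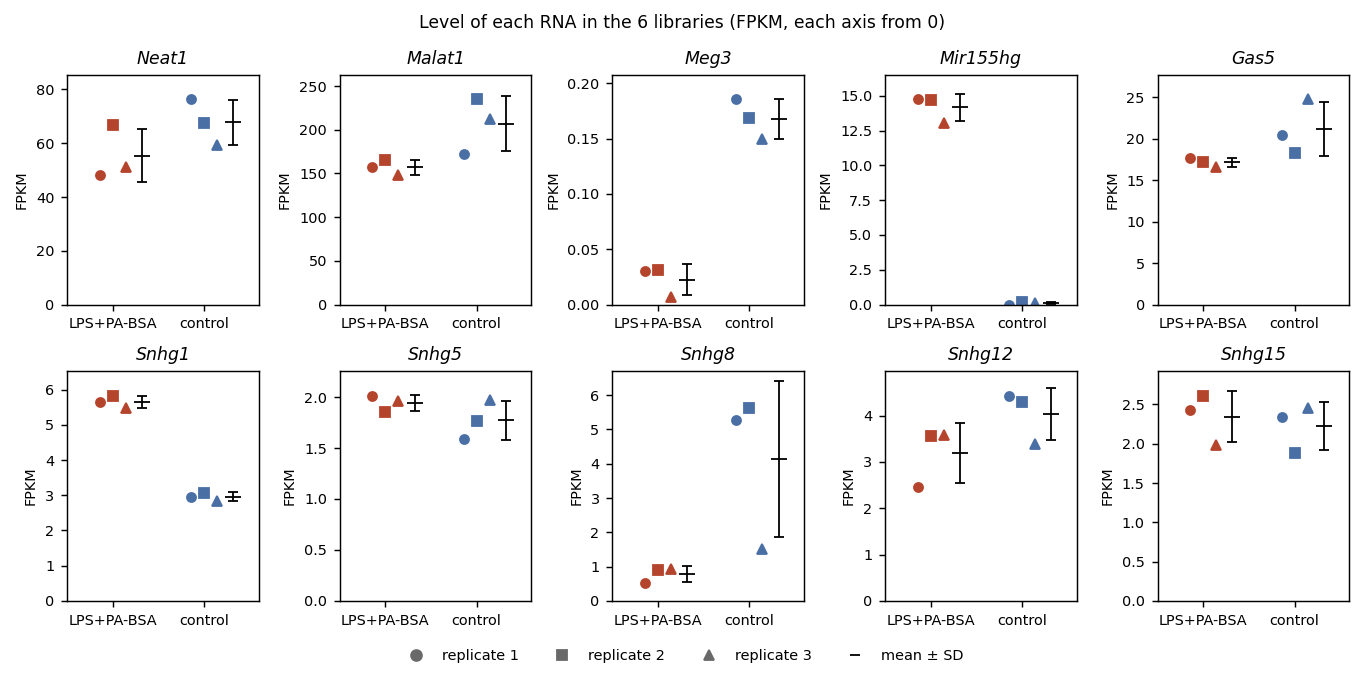
FPKM (y axes, linear, each from 0) of the 10 RNAs in the 3 LPS+PA-BSA libraries (red, left) and the 3 control libraries (blue, right), with the mean ± SD beside the points; marker shapes give the replicate number. Mir155hg and Snhg1 are separated upward in LPS+PA-BSA, Snhg8 is split by control 3 at 1.53 FPKM, and Neat1, Snhg5, Snhg12 and Snhg15 overlap between the groups.

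Neat1 and Malat1 lie 22035 bases apart on the minus strand of chromosome 19, Malat1 at chr19:5795690-5802672 and Neat1 at chr19:5824708-5845478 (GENCODE M21, GRCm38). Malat1 had 158, 165 and 148 FPKM in LPS+PA-BSA macrophages, against 173, 235 and 213 FPKM in control macrophages. Every LPS+PA-BSA library lay under every control, by 7.24 FPKM at the closest. Malat1 thus averaged 157 ± 8.89 FPKM in LPS+PA-BSA and 207 ± 31.5 FPKM in control (SD, n = 3 each), and fell by 0.38 on the log2 scale (SE 0.126, limma adjusted p = 0.0382). Among the summed FPKM of all long noncoding rows it made 6.61%, 6.91% and 6.47% in LPS+PA-BSA libraries and 8.45%, 11.65% and 10.28% in control libraries. The call is a narrow one. Malat1 was lower in all 18 alternative settings, by 0.26 to 0.70, and passed in 8 of them. It did not pass without any 1 of the LPS+PA-BSA libraries (adjusted p = 0.0849, 0.0694 and 0.112 without replicate 1, 2 and 3), without control 2 (0.110) or without control 3 (0.0682).

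Neat1 had 48.3, 66.6 and 51.1 FPKM in LPS+PA-BSA macrophages, against 76.4, 67.5 and 59.4 FPKM in control macrophages. LPS+PA-BSA 2 lay within the control range, so the groups overlap. The means were 55.3 ± 9.89 FPKM in LPS+PA-BSA and 67.7 ± 8.51 FPKM in control (SD, n = 3 each), a log2 difference of -0.29 (SE 0.150) that did not pass (limma adjusted p = 0.138). It did pass without LPS+PA-BSA 2 (-0.43, adjusted p = 0.0428). It also passed after quantile normalization (-0.47, adjusted p = 0.0220), while with median-of-ratios scaling the difference was -0.17 (adjusted p = 0.352). Among control 1, control 2 and LPS+PA-BSA 3 alone the difference was -0.48. Among control 3, LPS+PA-BSA 1 and LPS+PA-BSA 2 alone it was -0.0640. Malat1 exceeded Neat1 in every library, by 3.27, 2.48 and 2.89 times in LPS+PA-BSA and 2.26, 3.48 and 3.58 times in control, and these ratios overlap.

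Frmd8, whose protein stabilises the iRhom and ADAM17 sheddase complex, begins 29796 bases from the start of Neat1 on the same strand. It had 2.32, 3.32 and 3.32 FPKM in LPS+PA-BSA and 9.78, 11.3 and 4.60 FPKM in control, a log2 fold change of -1.19 (SE 0.300, limma adjusted p = 0.0150), with control 3 the lowest control.

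RNAs with no poly(A) tail were looked up because selection on oligo(dT) bears on both nuclear RNAs. Of 12 listed, 8 were in the table and 2 were tested, the signal recognition particle RNAs Rn7s1 (-0.15) and Rn7s2 (-0.05), and neither passed by limma, nor at an unadjusted p under 0.05. LPS+PA-BSA 3 held the most of both, 2.38 FPKM of Rn7s1 and 3.91 FPKM of Rn7s2, where the other 5 libraries had 0.299 to 1.45 and 0.560 to 2.29 FPKM. The part of RNA without a tail in the values of Malat1 and Neat1 was not tested.

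Of 16 tested paraspeckle proteins, 1 rose and 5 fell, beside 22.2% higher and 32.9% lower over all tested genes, so the share that fell was near that of the whole table. Their median log2 fold change was -0.18, beside -0.11 over all tested genes. The same shares and median are the background of each list count that follows. Taf15, an RNA-binding protein of the FET family, had 23.2 ± 1.57 FPKM in LPS+PA-BSA and 18.6 ± 1.15 FPKM in control (0.30, limma adjusted p = 0.0240). The largest falls were of Dazap1 (2.87 ± 0.815 against 7.07 ± 1.51 FPKM, -1.06, limma adjusted p = 0.00525) and Rbm14, which holds paraspeckles together (2.56 ± 0.397 against 4.35 ± 1.28 FPKM, -0.56, limma adjusted p = 0.0476). Control 3 was the lowest control for both, with 5.36 FPKM of Dazap1 and 2.92 FPKM of Rbm14, where LPS+PA-BSA 3 had 3.58 and 2.89 FPKM. The count of 5 lower ranged from 1 to 6 when 1 library was left out, with 1 without control 2 or LPS+PA-BSA 2 and 2 without control 1 or LPS+PA-BSA 3. Of 16 tested speckle proteins, 1 rose and 3 fell, with a median of -0.01, and the 3 became 1 without control 1, LPS+PA-BSA 2 or LPS+PA-BSA 3, while the 1 became 3 without control 3. Srsf3, a splicing factor of the SR family, had 15.3 ± 0.513 FPKM in LPS+PA-BSA and 11.6 ± 0.491 FPKM in control (0.37, limma adjusted p = 0.00588). Clk1, a kinase that phosphorylates SR proteins, had 13.2 ± 1.44 and 19.3 ± 2.31 FPKM (-0.51, limma adjusted p = 0.0101). Srsf4 had 1.85, 1.98 and 2.28 FPKM in LPS+PA-BSA and 6.39, 6.20 and 2.45 FPKM in control (-0.91, limma adjusted p = 0.0372), so control 3 lay close to the LPS+PA-BSA libraries.

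**Figure D2:**
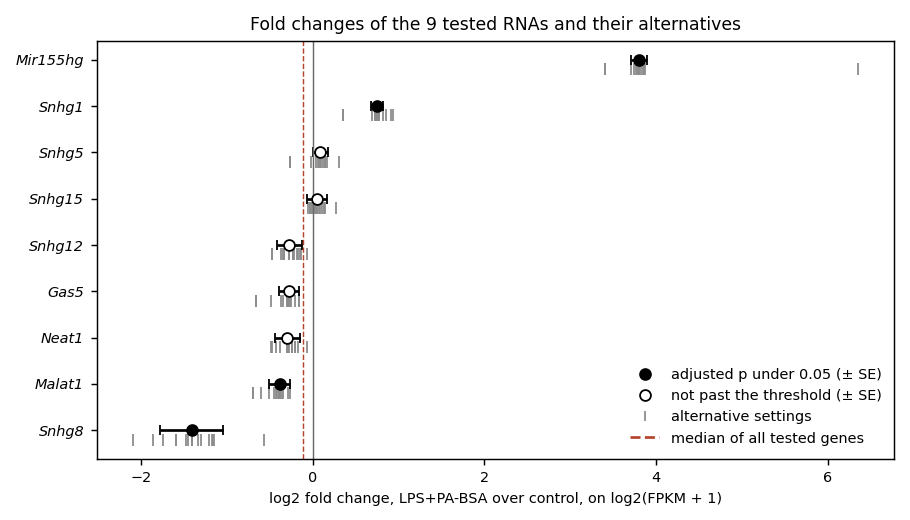
Log2 fold change of LPS+PA-BSA over control on log2(FPKM + 1) (x axis) for the 9 tested RNAs, from the largest rise at the top, with bars of 1 SE; filled circles pass the adjusted p, open ones do not, grey ticks are the alternative settings and the dashed line is the median of all tested genes. Mir155hg (3.80) and Snhg1 (0.75) have every tick on the right of 0. Malat1 and Snhg8 have every tick on the left, and so do Neat1, Gas5 and Snhg12, which did not pass. The ticks of Snhg5 and Snhg15 lie on both sides.

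Mir155hg lies at chr16:84703167-84715245 on the plus strand. It had 14.8, 14.7 and 13.1 FPKM in LPS+PA-BSA macrophages, against 0, 0.165 and 0.101 FPKM in control macrophages, where control 1 is listed at 0. The control values rest on a few fragments at most, so the ratio of the means, 160, is set by them. Mir155hg rose by 3.80 on the log2(FPKM + 1) scale (SE 0.0962, limma adjusted p = 1.30e-06), which was the fourth largest rise among the 340 tested long noncoding genes. It passed the filter on low values through its LPS+PA-BSA libraries alone and so had to differ. Its calls under other settings are therefore a description: it lay between 3.41 and 6.35 in the 18 alternatives, the highest with a pseudocount of 0.1 FPKM. In order of mean level it stood just under Gas5 in LPS+PA-BSA macrophages and last of the 10 in control macrophages.

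The microRNA itself is too short for these libraries: its own row reached 0.222 FPKM at most, so its level is not analysed here. Mrpl39, a mitochondrial ribosomal protein gene that ends 2331 bases beyond the host on the opposite strand, had 11.9, 10.2 and 11.0 FPKM in LPS+PA-BSA and 5.64, 5.04 and 5.14 FPKM in control (0.94, SE 0.0876, limma adjusted p = 0.000201), with no overlap.

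Reported targets of miR-155 did not move one way. Of 15 listed, 13 were tested, 4 rose and 5 fell, with a median of 0.14. Peli1, a ubiquitin ligase of Toll-like receptor signalling, had 22.2 ± 1.40 FPKM in LPS+PA-BSA and 4.22 ± 0.486 FPKM in control (2.16, limma adjusted p = 1.11e-05). Myd88, the adaptor of that pathway, had 34.2 ± 1.73 and 22.2 ± 0.628 FPKM (0.60, limma adjusted p = 0.000666). Inpp5d, the phosphatase SHIP1 and a well-studied target, had 29.4 ± 0.293 and 52.0 ± 3.57 FPKM (-0.80, limma adjusted p = 0.000236). Several of these genes are also known to respond to LPS, and what part the microRNA has in their levels was not tested.

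Of 15 other macrophage and microRNA host RNAs, 12 were in the table and 8 were tested, 4 rose and 1 fell, with a median of 0.15. AW112010, an RNA known from inflamed macrophages and reported to be translated, had 220, 250 and 251 FPKM in LPS+PA-BSA, against 23.4, 21.7 and 8.12 FPKM in control. All 3 treated libraries lay above all controls and above Malat1 in the same libraries, and the log2 fold change was 3.81 (SE 0.365, limma adjusted p = 0.000228). Ptgs2os2, which lies beside the cyclooxygenase gene Ptgs2 and is known as lincRNA-Cox2, had 4.44, 4.65 and 3.57 FPKM in LPS+PA-BSA and 0.103, 0.179 and 0.321 FPKM in control (2.12, SE 0.118, limma adjusted p = 2.44e-05). Like Mir155hg it passed the filter through its treated libraries alone. So did Mir17hg, also among the risers (1.30 ± 0.0512 FPKM in LPS+PA-BSA and 0.823 ± 0.0413 FPKM in control). Both thus had to lie higher in LPS+PA-BSA, and the count of risers is in part set by the filter. F630028O10Rik fell, with 1.51 ± 0.442 FPKM in LPS+PA-BSA and 11.4 ± 1.54 FPKM in control (-2.31, limma adjusted p = 5.13e-05), and without control 3 the count of lower RNAs was 2.

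The 6 snoRNA hosts split, with 1 higher, 1 lower and 4 not past the threshold, and a median log2 fold change of -0.11. The 1 lower was Snhg8, which passed the filter through its controls alone. Their summed level was 30.8, 31.9 and 30.6 FPKM in LPS+PA-BSA libraries and 37.0, 34.9 and 36.9 FPKM in control libraries. Gas5 alone made 53.8% to 57.5% of that sum in LPS+PA-BSA and 52.4% to 67.0% in control.

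Gas5, known for building up when growth stops, lies at chr1:161034422-161038539 on the plus strand. It had 17.7, 17.2 and 16.6 FPKM in LPS+PA-BSA macrophages, against 20.4, 18.3 and 24.8 FPKM in control macrophages. The groups do not overlap, but control 2 came within 0.607 FPKM of the highest treated library. The means were 17.2 ± 0.539 FPKM in LPS+PA-BSA and 21.2 ± 3.29 FPKM in control (SD, n = 3 each), and the log2 difference of -0.28 (SE 0.116) did not pass (limma adjusted p = 0.0820). It passed without control 2 (-0.37, adjusted p = 0.0427), with a term for these sets of libraries (-0.35, adjusted p = 0.0219) and once each library's trend on GC content and length was removed (-0.66, adjusted p = 0.000107). That trend is taken from the mean of all 6 libraries, so its removal also takes out any such trend that goes with treatment. Without control 3, the highest control, it was -0.16 (adjusted p = 0.139), and with median-of-ratios scaling also -0.16 (adjusted p = 0.296). Zbtb37, on the opposite strand, overlaps the start of Gas5, with starts 427 bases apart, and had 0.904 ± 0.135 FPKM in LPS+PA-BSA and 1.25 ± 0.317 FPKM in control (-0.24, limma adjusted p = 0.141). The library kit marks strand, but whether the counting used it is not stated, so reads of the overlap cannot be told apart.

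Snhg1 lies at chr19:8723475-8726443 on the plus strand. It had 5.64, 5.83 and 5.48 FPKM in LPS+PA-BSA macrophages, against 2.96, 3.08 and 2.83 FPKM in control macrophages. The 6 libraries form 2 tight groups, and the smallest gap between them is 2.40 FPKM, beside an SD of 0.174 FPKM in LPS+PA-BSA and 0.125 FPKM in control. Snhg1 rose 1.91-fold by the ratio of mean FPKM, or by 0.75 on the log2(FPKM + 1) scale (SE 0.0751, limma adjusted p = 0.000278). It was called in all 18 alternatives. In that with a filter at 5 FPKM it passed through its LPS+PA-BSA libraries alone and so had to lie higher. With the trend on GC content and length removed the rise was 0.36 and still called (adjusted p = 0.0273). As a result the ratio of Snhg1 to Gas5 was 0.319, 0.340 and 0.330 in LPS+PA-BSA libraries and 0.145, 0.168 and 0.114 in control libraries, with no overlap.

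Slc3a2, the heavy chain of several amino acid transporters, starts 106 bases from Snhg1 and runs the other way. It had 112, 125 and 147 FPKM in LPS+PA-BSA, against 53.3, 52.0 and 45.8 FPKM in control, and rose by 1.32 (SE 0.120, limma adjusted p = 0.000183). Both genes of the pair were thus higher in every treated library than in any control. Slc3a2 exceeded Snhg1 by 19.9, 21.4 and 26.9 times in LPS+PA-BSA and 18.0, 16.9 and 16.2 times in control. Wdr74, a ribosome assembly factor 9384 bases beyond Snhg1, rose less (9.09 ± 0.395 against 7.07 ± 0.722 FPKM, 0.33, limma adjusted p = 0.0242).

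Snhg8, the host of Snora24, lies at chr3:123507552-123508404 on the minus strand. It had 0.531, 0.894 and 0.930 FPKM in LPS+PA-BSA macrophages, against 5.27, 5.62 and 1.53 FPKM in control macrophages. Control 3 stood far below the other controls and only 0.597 FPKM above the highest treated library. Snhg8 averaged 0.785 ± 0.221 FPKM in LPS+PA-BSA and 4.14 ± 2.27 FPKM in control (SD, n = 3 each), and fell by 1.41 on the log2 scale (SE 0.369, limma adjusted p = 0.0174). It passed the filter through its control libraries alone and so had to differ. Without control 3 it fell by 1.86 (adjusted p = 7.49e-05). Among control 3, LPS+PA-BSA 1 and LPS+PA-BSA 2 alone the difference was -0.57. Among control 1, control 2 and LPS+PA-BSA 3 alone it was -1.74. The call was lost without control 1 (-1.20, adjusted p = 0.0575), without control 2 (-1.17, adjusted p = 0.0534) and without LPS+PA-BSA 1 (-1.30, adjusted p = 0.0590). With the trend on GC content and length removed, Snhg8 fell by 1.59 (adjusted p = 0.0148).

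Other genes were low in control 3 in the same manner. Eef2, the translation elongation factor 2 and itself a snoRNA host, had 44.8, 75.2 and 95.5 FPKM in LPS+PA-BSA and 688, 737 and 169 FPKM in control. Rpsa, a ribosomal protein and host, had 45.1, 64.4 and 74.0 FPKM in LPS+PA-BSA and 295, 293 and 115 FPKM in control. Over all tested genes control 3 was the lowest control in 40.2%, and in 12 of the 30 protein-coding hosts.

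**Figure D3:**
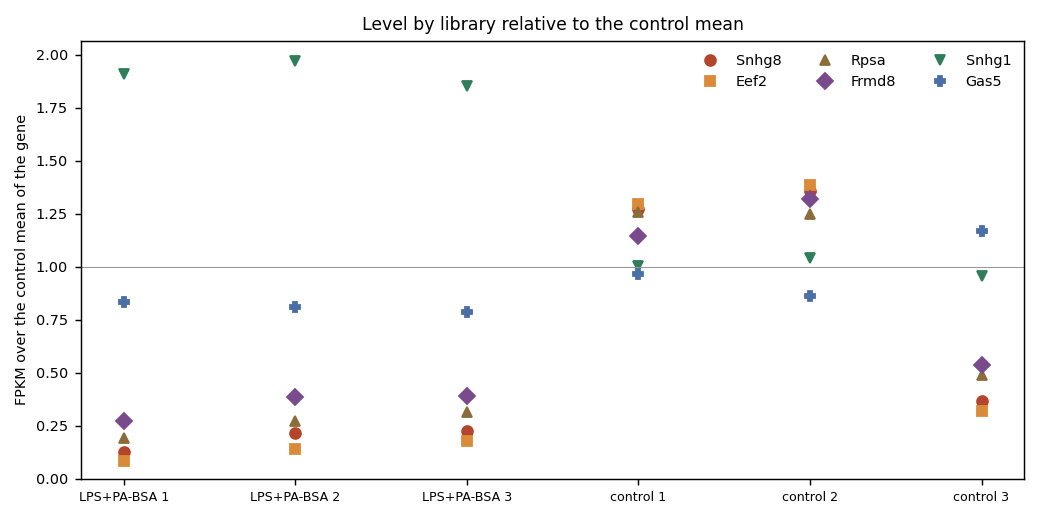
FPKM of Snhg8, Eef2, Rpsa, Frmd8, Snhg1 and Gas5 in each of the 6 libraries divided by the gene's mean over the 3 control libraries (y axis, linear, from 0; the line marks 1). Snhg8, Eef2, Rpsa and Frmd8 are low in control 3 as well as in the 3 LPS+PA-BSA libraries, whereas Snhg1 and Gas5 are not low there.

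The remaining hosts were low and did not pass. Snhg5 (chr9:88521050-88522929, minus strand) had 2.01, 1.86 and 1.96 FPKM in LPS+PA-BSA and 1.58, 1.76 and 1.97 FPKM in control, a difference of 0.09 (SE 0.0853, limma adjusted p = 0.402). Snhg12 (chr4:132308623-132311024, plus strand) had 2.45, 3.55 and 3.59 FPKM in LPS+PA-BSA and 4.43, 4.30 and 3.40 FPKM in control, a difference of -0.27 (SE 0.147, limma adjusted p = 0.160). Snhg15 (chr11:6525591-6528760, minus strand) had 2.43, 2.61 and 1.99 FPKM in LPS+PA-BSA and 2.33, 1.88 and 2.46 FPKM in control, a difference of 0.05 (SE 0.114, limma adjusted p = 0.712). All 3 overlap between the groups. Snhg12 stood at -0.47 and passed with the trend on GC content and length removed (adjusted p = 0.0498), and at -0.14 without LPS+PA-BSA 1 (adjusted p = 0.391) and -0.0657 after quantile normalization (adjusted p = 0.680). The sign of Snhg5 and of Snhg15 changed under other settings: with the trend on GC content and length removed they stood at -0.26 (adjusted p = 0.0190) and -0.03 (adjusted p = 0.833).

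The products of these hosts are not seen here. The 27 snoRNA rows that lie inside the 6 hosts had highest values of at most 0.126 FPKM, with a median of 0.0247 FPKM. Snord47 and Snora24, printed above, reached 0.0554 and 0.0567 FPKM. The host rows measure host transcripts, and the levels of mature snoRNAs are not analysed here.

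Set side by side, the mean log2(FPKM + 1) of Neat1 and Malat1 was 6.47, 6.73 and 6.46 in LPS+PA-BSA libraries and 6.86, 6.99 and 6.83 in control libraries. The mean of the 6 hosts was 2.12, 2.24 and 2.19 in LPS+PA-BSA and 2.43, 2.40 and 2.24 in control. Nuclear RNAs minus hosts thus came to 4.35, 4.49 and 4.27 in LPS+PA-BSA and 4.42, 4.59 and 4.58 in control. These values overlap, and the means of 4.37 ± 0.111 in LPS+PA-BSA and 4.53 ± 0.0940 in control differ by -0.16, with no test of a score over chosen genes. The difference between groups was -0.34 for the nuclear mean and -0.18 for the host mean. Single hosts ranged from -1.41 (Snhg8) to 0.75 (Snhg1). Between them stood Gas5 (-0.28), Snhg12 (-0.27), Snhg15 (0.05) and Snhg5 (0.09). Snhg8 passed the filter through its controls alone and so had to lie lower. The fall of the host mean, and the overlap of the nuclear-minus-host values, thus rest on Snhg8.

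Other hosts gave a like picture. Of 15 other noncoding snoRNA hosts, 14 were in the table and 7 were tested, 1 rose and 1 fell, with a median of 0.06, and 2 rose without control 3. Zfas1, antisense to the start of Znfx1, had 9.92, 10.7 and 8.50 FPKM in LPS+PA-BSA and 6.80, 5.80 and 6.98 FPKM in control (0.51, SE 0.112, limma adjusted p = 0.00913). Snhg18 had 0.423, 0.717 and 0.509 FPKM in LPS+PA-BSA and 1.14, 1.26 and 1.51 FPKM in control (-0.57, SE 0.106, limma adjusted p = 0.00441), and passed the filter through its controls alone. The groups do not overlap for either.

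All 30 protein-coding hosts were tested, 7 rose and 16 fell, with a median of -0.58 beside -0.11 over all tested genes. The risers were the chaperones Hspa9 (123 ± 10.9 FPKM in LPS+PA-BSA and 67.6 ± 6.29 FPKM in control, 0.86, limma adjusted p = 0.000640) and Hspa8 (740 ± 42.7 and 429 ± 8.42 FPKM, 0.78, limma adjusted p = 0.000275), with Nop56, Nop58, Eif4a1, Ncl and Dkc1. The largest falls were those of Eef2 (-2.67, limma adjusted p = 0.00969) and Rpsa (-1.83, limma adjusted p = 0.00805). Control 3 was the lowest control for both. Ribosomal protein genes have many near-identical pseudogenes that can share reads, so their values are uncertain.

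The proteins that form snoRNPs, the particles of a snoRNA and its enzymes, were listed next. Of 12 tested, 6 rose and none fell by limma, beside 22.2% higher and 32.9% lower over all tested genes, with a median of 0.26. At an unadjusted p under 0.05 the same counts were 6 and 1, and without control 3 there were 2 lower at the adjusted threshold. Nop56 and Nop58, the core pair of box C/D particles and both snoRNA hosts, had 17.8 ± 1.45 and 3.15 ± 0.208 FPKM in LPS+PA-BSA and 9.99 ± 0.387 and 1.59 ± 0.233 FPKM in control (0.77 and 0.68, limma adjusted p = 0.000450 and 0.00134). Of the 15 factors of nonsense-mediated decay, the route that removes many host RNAs, 5 rose and 2 fell, with a median of 0.12. Magohb, of the exon junction complex, had 2.99, 3.91 and 3.02 FPKM in LPS+PA-BSA and 0.993, 0.652 and 1.13 FPKM in control (1.16, limma adjusted p = 0.000557). Upf1, the central helicase, had 7.33 ± 1.31 FPKM in LPS+PA-BSA and 11.5 ± 2.35 FPKM in control (-0.58, limma adjusted p = 0.0326), and control 3 was the lowest control at 8.89 FPKM, where LPS+PA-BSA 3 had 8.33 FPKM. Smg6, the endonuclease, had 2.35 ± 0.185 and 3.45 ± 0.156 FPKM (-0.41, limma adjusted p = 0.00622). The 2 lower became 1 without control 1, without control 2, without LPS+PA-BSA 1 or without LPS+PA-BSA 2, and 4 without control 3.

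**Figure D4:**
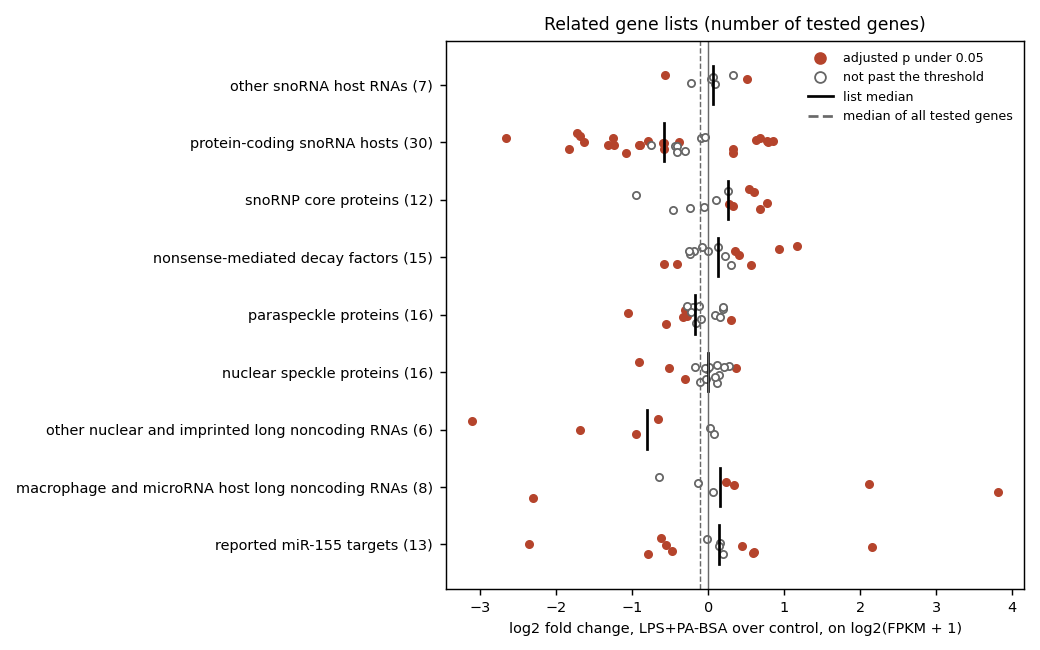
Log2 fold change of LPS+PA-BSA over control on log2(FPKM + 1) (x axis) of every tested gene of 9 related lists (rows, number tested in brackets); red points pass the adjusted p, open points do not, black bars are list medians and the dashed line is the median of all tested genes, -0.11. Protein-coding snoRNA hosts reach from -2.67 (Eef2) to 0.86 (Hspa9) around a median of -0.58, and the median of the speckle proteins is -0.01.

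Meg3 (chr12:109541001-109571726, plus strand) had 0.0303, 0.0310 and 0.00639 FPKM in LPS+PA-BSA macrophages, against 0.186, 0.169 and 0.149 FPKM in control macrophages. Every control lay above every treated library, but all 6 values rest on few fragments. It failed the filter and was not tested, and its difference was -0.19 on the log2(FPKM + 1) scale. The authors' deposited table gives it a log2 fold change of -2.90 and marks it as significant. With no filter on low values it was lower (limma adjusted p = 0.00248). The other Dlk1-Dio3 genes were under 1 FPKM in every library. Rian, a noncoding RNA of the same transcribed strand, had 0.0126, 0.0181 and 0.0148 FPKM in LPS+PA-BSA and 0.0685, 0.0891 and 0.0760 FPKM in control, and Dio3 is listed at 0 in all 3 LPS+PA-BSA libraries and had 0.640, 0.312 and 0.498 FPKM in control.

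Of 16 listed nuclear and imprinted long noncoding RNAs, Meg3 among them, 14 were in the table and 6 were tested. None rose by limma (0 also at an unadjusted p under 0.05) and 4 fell, with a median of -0.81. H19, an imprinted RNA of fetal and mesenchymal tissue, had 0.760, 0.880 and 0.0201 FPKM in LPS+PA-BSA and 13.1, 12.9 and 10.1 FPKM in control (-3.11, SE 0.246, limma adjusted p = 0.000101). Peg13, an imprinted RNA within Trappc9, had 2.08, 2.25 and 1.69 FPKM in LPS+PA-BSA and 9.16, 8.11 and 8.73 FPKM in control (-1.69, SE 0.101, limma adjusted p = 3.19e-05). H19 passed the filter through its controls alone.

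Markers of stromal cells, in which Meg3 and H19 are known to be expressed, moved with the groups. Of 14 listed, 13 were tested, 12 fell and 1 rose, and their summed level was 59.4 to 75.3 FPKM in LPS+PA-BSA and 390 to 464 FPKM in control. Acta2, smooth muscle actin, had 17.8, 17.1 and 14.7 FPKM in LPS+PA-BSA and 228, 201 and 221 FPKM in control, and the collagen Col1a1 had 3.97, 5.72 and 6.07 FPKM in LPS+PA-BSA and 64.8, 69.5 and 31.6 FPKM in control. Dcn, the proteoglycan decorin, was the 1 that rose (23.3 ± 4.08 against 4.91 ± 1.32 FPKM, 2.05, limma adjusted p = 0.000204). Col6a3, Thy1 and Mgp passed the filter through their controls alone and so had to come out lower. No listed stromal marker was at 0 in all libraries. The part of stromal RNA in the values of Meg3 and H19 was not tested. Other lists were low throughout: B cell markers summed to 1.28 to 1.47 FPKM in LPS+PA-BSA and 9.46 to 11.1 FPKM in control, T and NK cell markers to 1.03 to 1.43 and 6.34 to 7.35 FPKM, dendritic cell markers to 1.29 to 1.46 and 0.347 to 0.497 FPKM, mast cell and basophil markers to 0.874 to 2.21 and 1.65 to 1.82 FPKM, and erythroid markers to 0.0659 to 7.75 and 0 to 3.84 FPKM. The B cell sum was mostly Cd79b, with means of 1.09 FPKM in LPS+PA-BSA and 9.48 FPKM in control. The T and NK cell sum was mostly Cd4, with 1.13 and 6.76 FPKM. No other B cell marker averaged above 0.825 FPKM (Ebf1, control) in either group. No other T and NK cell marker averaged above 0.0692 FPKM (Nkg7, LPS+PA-BSA). Neutrophil markers summed to 59.5 to 76.0 FPKM in LPS+PA-BSA and 10.4 to 27.6 FPKM in control, and 1 of 3 tested rose. That 1 was S100a8, with 57.7, 61.9 and 67.1 FPKM in LPS+PA-BSA and 7.78, 6.11 and 8.30 FPKM in control. S100a9 did not pass (3.82 ± 3.02 against 7.55 ± 5.04 FPKM, -0.75, limma adjusted p = 0.368), nor did Camp (-0.11, limma adjusted p = 0.771). Ngp was not tested and averaged 0.224 FPKM in LPS+PA-BSA and 3.98 FPKM in control. The rise of the sum is thus that of S100a8.

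**Figure D5:**
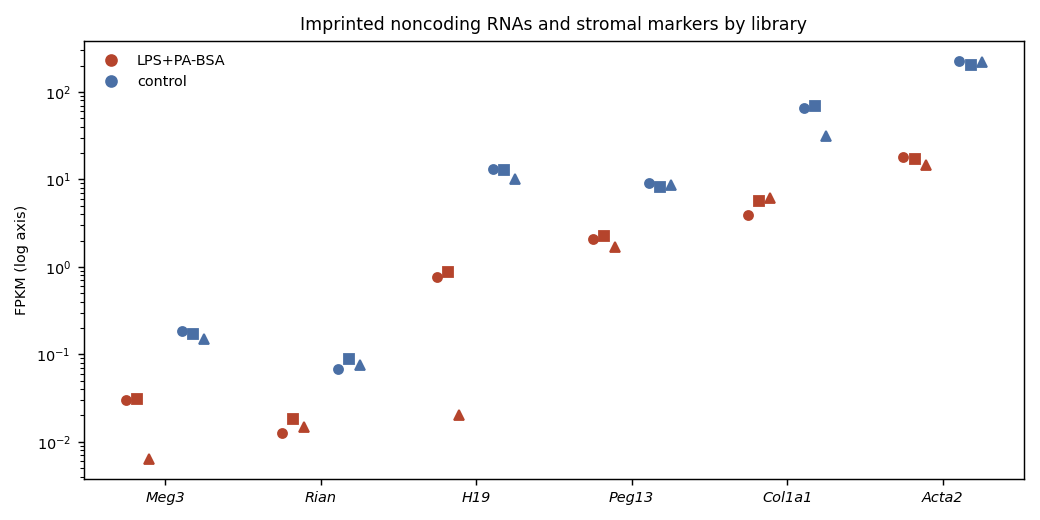
FPKM (y axis, log) of the imprinted RNAs Meg3, Rian, H19 and Peg13 and the stromal markers Col1a1 and Acta2 in the 3 LPS+PA-BSA libraries (red, left in each pair) and the 3 control libraries (blue); marker shapes give the replicate. All 6 genes lie lower in every LPS+PA-BSA library than in any control, at levels that range from 0.00639 FPKM for Meg3 to 228 FPKM for Acta2.

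The authors' deposited table marks 3 of the 10 RNAs as significant, Mir155hg, Snhg8 and Meg3. The authors' deposited table gives Snhg1 a q-value of 7.1e-11 without the mark, with a log2 fold change of 0.93, and it gives Malat1 a q-value of 0.36 at a log2 fold change of -0.40. Over all rows with the mark, the highest q-value was 0.0499 and the smallest absolute log2 fold change was 1.00. Snhg1 and Malat1 both changed by less than that.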

How the data were processed

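RNA of 3 LPS+PA-BSA and 3 control BMDM libraries was taken with TRIzol, selected on oligo(dT) and made into dUTP libraries, per the labels' protocols. The genome build mm10 and the tools StringTie 2.1.6, HISAT2 2.2.1, cutadapt 1.9, edgeR and DESeq2 are listed without role or order, per the submitters' processing notes. The authors deposited FPKM for 29957 genes, 1 column per library. Per the file headers the authors also gave a fold change, which equals the ratio of group means within 0.1% in all 23889 rows where both are above 0, with its log2 and with p-value and q-value columns. FPKM is relative to each library's total, and PCR can favour fragments by GC content.

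From these, limma 3.58.1 (R 4.3.3) with a variance trend was fitted to log2(FPKM + 1) for genes that reached 1 FPKM in 3 or more libraries, two-sided, Benjamini-Hochberg adjusted over all 11364, and tested on simulated data. A pseudocount understates folds of low genes. Depths came from steps of low FPKM, searched with a tolerance of 0.5%, and cover counting error only. No 2 libraries held identical values. Of the rows, 29871 matched GENCODE M21. RefSeq windows were found for 9 of the 10 RNAs. Named were all 10 RNAs, the 2 largest rises and falls called in each list, and nearest protein-coding genes. A few genes that this rule names are not reported here. The members and lists were chosen with earlier results of these data known. Python 3.11.15 was also used. Alternatives changed the pseudocount, filter, scaling, variance trend, replicate block, GC and length trend and the libraries used. The GC and length trend was fitted to departures from the mean of all libraries, not of each group, so its removal can also change treatment differences. Symbols on more than 1 row (55, none of them a member) took the row of highest mean.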

Additional observations from a re-analysis of the deposited data

How the results depend on the processing

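The rise of Snhg1 was called under all 18 alternatives. In that with a filter at 5 FPKM it passed through its LPS+PA-BSA libraries alone, so there it had to lie higher. Mir155hg was also called under all 18, but it passed the main filter through its LPS+PA-BSA libraries alone, so this is no sign of stability. No other of the 10 RNAs was called higher, except Snhg5 after quantile normalization (0.30, limma adjusted p = 0.0404). The 2 lower RNAs became 5 with each library's GC and length trend removed, 1 with a filter at 5 FPKM (which leaves out Snhg8), 1 after median-of-ratios scaling, 1 with the replicate block, 0 of the 9 tested RNAs with no filter (where Meg3 also enters and was lower, limma adjusted p = 0.00248) and 0 within control 3, LPS+PA-BSA 1 and LPS+PA-BSA 2, and ranged from 0 to 2 when 1 library was left out. Nuclear RNAs minus hosts (-0.16) moved to -0.0286 with the GC and length trend removed, with or without the block, to -0.54 after quantile normalization, and lay between -0.22 and -0.11 when 1 library was left out. Snhg15 reversed to -0.0286 with the GC and length trend removed (with or without the block), to -0.0131 with a term for both sets of libraries, to -0.0535 within control 1, control 2 and LPS+PA-BSA 3, and ranged from -0.0263 to 0.13 over leaving out 1 library. Snhg5 reversed to -0.26 with the trend removed (with or without the block) and to -0.0170 within control 3, LPS+PA-BSA 1 and LPS+PA-BSA 2. Over all genes, 2523 were higher and 3736 lower. Within control 3, LPS+PA-BSA 1 and LPS+PA-BSA 2 these were 1197 and 1797, a filter at 5 FPKM left 2009 lower, and leaving out 1 library gave 2007 to 2778 higher and 2765 to 4273 lower. Of 396 counts of the related lists under alternatives, 328 stayed within 1.5 times and 68 did not. The causes were not tested.

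Deviations from the group mean correlated at -0.47, 0.09 and -0.59 between same-numbered libraries. The highest correlations were of LPS+PA-BSA 1 with control 3 (0.60) and LPS+PA-BSA 3 with control 2 (0.54). Within each of these pairs the GC slopes had the same sign. Such a trend can hide a shared source, so whether the numbers pair libraries cannot be told from these values. With the replicate block 1918 genes were higher and 2820 lower, and Malat1 did not pass (adjusted p = 0.0710). Meg3, and Mir155hg in controls, rest on few fragments. The snoRNA rows, at most 0.126 FPKM, lie below what a whole fragment would give an RNA of their length.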
